A study of Mus musculus with 6 samples.

Results

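The 7 genes described here encode the cytosolic machinery of translation elongation and its kinase: Eef1a1, Eef1a2, Eef1b2, Eef1d, Eef1g, Eef2 and Eef2k. They were picked by gene symbol from a table of isoform abundances in mouse cells labelled as purified retinal ganglion cells, and all 7 were found among 17027 symbols, with 38 of its 50829 isoforms. The values are FPKM (mapped fragments relative to transcript length in kilobases and to library size), summed over the isoforms of a gene, so that levels can be set side by side between genes. All 7 passed the filter of a mean of at least 1 FPKM, as did 14390 of the 17027 symbols.

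The cells came from WT mice of the strain labelled C57/6NCrl of 3 ages, embryonic day 18 (E18), postnatal day 5 (P5) and adulthood (Adult, 8 weeks), each with 2 of the 6 libraries. No group carried an altered allele or received a treatment, per the labels. Cells were selected with antibody to Thy1, a surface antigen of ganglion cells, after panning away macrophages and, in the sample records only, amacrine cells. In both Adult libraries the listed ganglion cell markers summed to less FPKM than those of rods, of amacrine cells or of Müller glia and astrocytes, so these libraries are called by their label and not taken as pure ganglion cells; the values are given further on. The columns of the P5 libraries share a header, so those libraries are called a and b. Since the labels do not tell which animals or litters a library came from, p-values here reflect no more than the spread of these samples, which may be technical.

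During elongation, eEF1A carries each aminoacyl-tRNA to the ribosome as a GTPase. The eEF1B complex, made of the products of Eef1b2, Eef1d and Eef1g, recharges eEF1A with GTP, and eEF2 then moves the ribosome along the mRNA. The kinase eEF2K, which is activated by calcium and calmodulin, phosphorylates eEF2 and slows elongation. Vertebrates have 2 nearly identical forms of eEF1A: eEF1A1 is widespread, and eEF1A2 replaces it after birth in neurons and muscle. Mice of the classical strain wasted, which lack Eef1a2, lose motor neurons.

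Because the whole account rests on telling Eef1a1 from Eef1a2, the first 90 coding bases of each are shown, taken from the GENCODE M21 transcripts of GRCm38, 5′ to 3′. Capitals mark the 15 bases at which they differ.
Eef1a1: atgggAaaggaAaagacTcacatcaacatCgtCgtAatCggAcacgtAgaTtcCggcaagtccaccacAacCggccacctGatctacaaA
Eef1a2: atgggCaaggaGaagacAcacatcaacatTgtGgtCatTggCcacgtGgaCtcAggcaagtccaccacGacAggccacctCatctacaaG
Over 1389 aligned columns the coding sequences were 79.9% identical, with 276 differing bases and 3 gap columns. Of these differences, 224 fell on the third codon position, 34 on the first and 18 on the second. The principal transcripts of Eef1a1 and Eef1a2 shared 0 stretches of 31 bases, so an error-free read with 31 or more bases on one cannot match the other.

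The gene annotation (GRCm38) places Eef1a1 at chr9:78478449-78489151 on the minus strand and Eef1a2 at chr2:181147653-181157014 on the minus strand. Eef1b2 lies at chr1:63176825-63180486, Eef1g at chr19:8967041-8978479, Eef2 at chr10:81176631-81182498 and Eef2k at chr7:120842831-120907450, all on the plus strand. Eef1d lies at chr15:75894205-75909556 on the minus strand.

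Since Eef1a1 and Eef1a2 moved in opposite directions, the 250 bases before the start of each (RefSeq, GRCm38.p6) are shown in the direction of transcription. Capitals mark GGGCGG, the core of the GC box, on either strand. The Eef1a1 stretch is at chr9:78481725-78481974 and the Eef1a2 stretch at chr2:181157016-181157265, both read from the minus strand.
Eef1a1: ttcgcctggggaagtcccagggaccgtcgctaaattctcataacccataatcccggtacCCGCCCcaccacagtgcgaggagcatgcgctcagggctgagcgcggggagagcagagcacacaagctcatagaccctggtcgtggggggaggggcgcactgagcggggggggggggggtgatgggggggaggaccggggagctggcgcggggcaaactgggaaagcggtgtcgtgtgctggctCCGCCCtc
Eef1a2: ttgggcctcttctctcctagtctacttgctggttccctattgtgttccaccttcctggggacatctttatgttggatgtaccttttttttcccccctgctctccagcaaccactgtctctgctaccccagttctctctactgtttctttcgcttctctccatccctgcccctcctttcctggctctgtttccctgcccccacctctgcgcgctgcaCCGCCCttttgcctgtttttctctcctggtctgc
The motif was present at 2 places in the Eef1a1 stretch and at 1 in that of Eef1a2, and 35.7% of 32851 promoter windows (250 bases before to 50 after the start) held it. CCAAT, searched on both strands, was in neither window and in 37.4% of all. TATATAA, a form of the TATA box, lay in the Eef1a1 window 23 bases after the start given there and not in that of Eef1a2. It was in 3.24% of all windows. TGACGTCA, the full cyclic AMP response element, lay in the Eef2 window 2 bases after the start and in 1.79% of all windows, and was in neither of the eEF1A windows. These matches describe letters only. Promoter windows were matched for 5 of the 7 genes, and none was used for Eef1d and Eef1g.

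Eef1a1, the predominant eEF1A gene at every age, stood at 2861 and 3146 FPKM in the E18 libraries, 2165 and 2168 in those of P5, and 631 and 624 in the Adult libraries. No library of an age overlapped another age, and replicates differed by at most 1.10-fold. Among 12106 protein-coding symbols it ranked 3 in both E18 libraries, 3 and 4 at P5, then 13 and 10 in Adult. The mean was 4.79-fold lower in Adult (627 ± 4.88, SD, n = 2) than at E18 (3003 ± 201). On the log2(FPKM + 1) scale the change was -2.26 (95% interval -2.51 to -2.005, limma adjusted p = 2.81e-05). Most of this loss lay after P5: Adult against P5 gave -1.79 (adjusted p = 7.22e-05, limma) and P5 against E18 gave -0.47 (adjusted p = 0.0408, limma). The earlier step stopped being called when any single library was left out (limma adjusted p 0.0856 to 0.233), and under each of the 3 other scalings described further on.

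Eef1a2 moved the other way. It was at 44.0 and 43.0 FPKM at E18, 104 and 81.8 at P5 and, in Adult, 205 and 219. Every library of a later age was above every library of an earlier one, and the P5 libraries were the least alike, at a 1.27-fold difference. Its rank among protein-coding symbols went from 1778 and 1958 at E18 to 613 and 821 at P5 and then 103 and 88 in Adult. The mean rose 2.14-fold from E18 (43.5 ± 0.770, SD, n = 2) to P5 (93.0 ± 15.8), 2.28-fold from P5 to Adult (212 ± 10.03), and 4.88-fold over the whole span. The limma log2 changes were 1.07 (adjusted p = 0.0121), 1.19 (adjusted p = 0.000559) and 2.26 (adjusted p = 5.31e-05) in that order. Unlike the fall of Eef1a1, the rise of Eef1a2 as deposited was of similar size on the log2 scale in both intervals. With TPM, a scaling described further on, the Eef1a2 steps were unequal, at 1.21 and 0.44. The difference between intervals was not tested. Its call between E18 and P5 was lost without E18 replicate 1 (limma adjusted p = 0.118), E18 replicate 2 (0.0839) or P5 library a (0.0665).

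**Figure D1:**
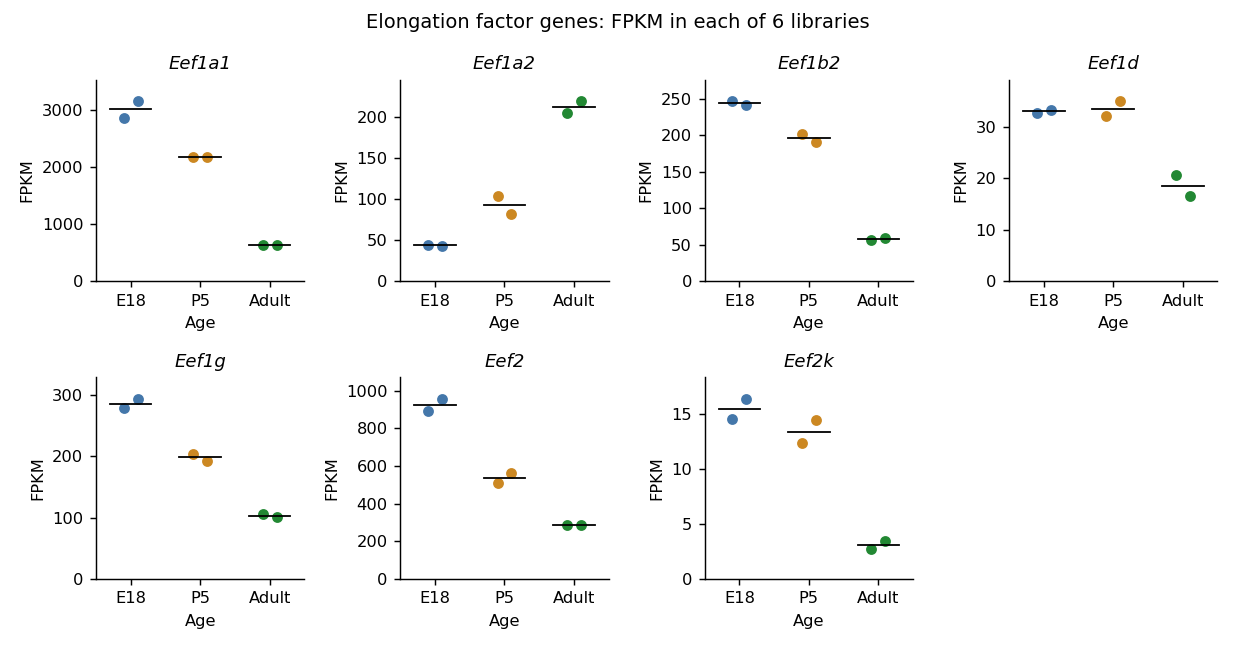
FPKM of each of the 7 genes (vertical axis, linear from 0, a separate scale per gene) at the 3 ages. Each point is a library, 2 per age, and the black line is their mean. Eef1a2 climbs from 43.0 to 219 FPKM, while the other genes are lowest in both Adult libraries.

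The share of Eef1a2 in the summed eEF1A FPKM of these bulk libraries rose with age. Whether Eef1a2 replaced Eef1a1 within a cell type was not tested. Eef1a2 made up 1.52% and 1.35% of the summed eEF1A FPKM in the E18 libraries, 4.59% and 3.64% at P5, then 24.5% and 26.0% in Adult. This share is a ratio inside a library and does not move when all values of a library are multiplied by the same factor; quantile normalization is no such scaling and can move it. Groups did not overlap, and an exact permutation test (two-sided, n = 2 against 2) gave p = 0.333 for each pair of ages, the smallest it can give. Put the other way, there were 65.0 and 73.2 Eef1a1 FPKM per Eef1a2 FPKM at E18, 20.8 and 26.5 at P5 and, in Adult, 3.08 and 2.85. Eef1a1 thus remained the more abundant transcript in all 6 libraries.

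The sum of both genes was not kept level. It was 2905 and 3189 FPKM at E18, 2269 and 2250 at P5, then 836 and 843 in Adult. The Eef1a2 gain from E18 to Adult was 169 FPKM, which is 7.09% of the 2376 FPKM by which Eef1a1 was lower. In these bulk samples, fewer cells of a type and less RNA per cell cannot be told apart.

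**Figure D2:**
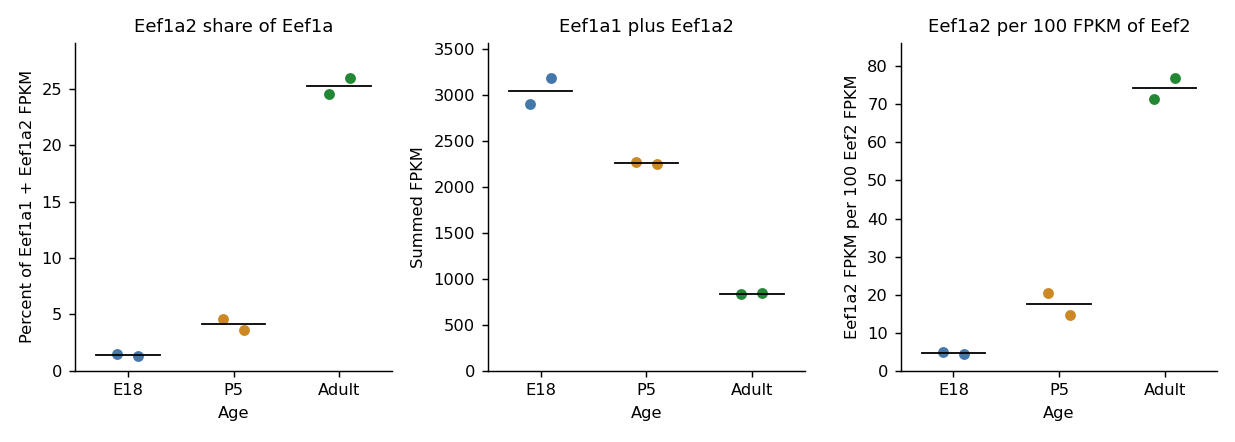
Left, Eef1a2 as a percent of summed Eef1a1 and Eef1a2 FPKM; middle, that sum in FPKM; right, Eef1a2 FPKM per 100 FPKM of Eef2. Points are libraries, 2 per age, and lines are means; the share reaches 24.5% and 26.0% in Adult as the sum drops to 836 and 843 FPKM.

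Among the subunits of the exchange complex, Eef1b2 (eEF1Bα, which holds a nucleotide exchange domain) stood at 247 and 242 FPKM at E18, 201 and 192 at P5 and, in Adult, 56.5 and 58.8. The P5 libraries were below those of E18 but the log2 change of -0.31 (95% interval -0.53 to -0.10) did not pass the test (limma adjusted p = 0.0749). In Adult it fell by 1.75 on the log2 scale against P5 (limma adjusted p = 5.05e-05) and by 2.06 against E18 (2.49e-05), a 4.24-fold difference of means.

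Eef1g (eEF1Bγ, a structural subunit) was at 279 and 294 FPKM at E18, 204 and 193 at P5, then 105 and 101 in Adult. It was lower at each step, with log2 changes of -0.53 (limma adjusted p = 0.0243) and -0.93 (0.000342), and -1.46 over the whole span (6.49e-05). The first of these calls was lost, narrowly in some cases, when any library was left out (limma adjusted p 0.0505 to 0.163).

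Eef1d (eEF1Bδ, the second exchange subunit) was the least abundant of the complex at each age. It stood at 32.8 and 33.4 FPKM at E18, 32.2 and 35.0 at P5 and, in Adult, 20.7 and 16.5. E18 and P5 overlapped, with a log2 change of 0.02 whose 95% interval ran from -0.30 to 0.34 (limma adjusted p = 0.945). Adult was lower than P5 by a log2 change of -0.83 (limma adjusted p = 0.00239), 1.81-fold in means. Among the 6 falls between these ages it was the smallest on the log2 scale as deposited, but not with quantile normalization (-0.67, beside -0.58 for Eef1g and -0.63 for Eef2) or without Adult replicate 1 (-0.98, beside -0.96 and -0.91).

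Because these subunits fell by unequal amounts, their ratio to summed eEF1A shifted. Per 100 FPKM of eEF1A, Eef1b2 was at 8.50 and 7.59 at E18, 8.88 and 8.51 at P5, then 6.77 and 6.98 in Adult. Eef1g was at 9.59 and 9.21, then 8.98 and 8.58, and then 12.6 and 12.02. Eef1d was at 1.13 and 1.05, 1.42 and 1.56, and 2.47 and 1.96. In Adult, both libraries were lower than at E18 for Eef1b2 and higher for Eef1g and for Eef1d as a whole gene. The isoforms of Eef1d with the longest coding sequence, described further on, held 61.9% and 65.0% of its FPKM at E18. In Adult they held 74.2% and 82.3%. A ratio of the shorter coding forms alone to eEF1A was not tested. With n = 2 libraries against 2, the exact permutation p of every such ratio is at the 0.333 floor.

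The translocase gene Eef2 was second to Eef1a1 at all ages. It was at 892 and 955 FPKM at E18, 509 and 562 at P5 and, in Adult, 287 and 285. As deposited, its fall was divided about evenly between the intervals, with log2 changes of -0.79 (limma adjusted p = 0.0129) and -0.90 (0.000556), which add up to -1.69 (5.55e-05) and a 3.23-fold difference of means. With TPM, a scaling described further on, the steps were -0.65 and -1.66. The earlier call was lost without either E18 library or without P5 library a, where the limma adjusted p ranged up to 0.113. Per 100 FPKM of eEF1A, Eef2 was at 30.7 and 30.0 at E18, 22.4 and 25.004 at P5, then 34.3 and 33.8 in Adult, so P5 was the low point of this ratio in both libraries. Eef1a2 was at 4.94 and 4.50 FPKM per 100 FPKM of Eef2 at E18, 20.4 and 14.5 at P5 and, in Adult, 71.4 and 77.0.

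The kinase gene Eef2k had the lowest level of the set, at 14.5 and 16.4 FPKM at E18, 12.3 and 14.5 at P5, then 2.72 and 3.41 in Adult. The E18 and P5 libraries lay next to each other, and their log2 difference of -0.19 (95% interval -0.57 to 0.18) did not pass the test (limma adjusted p = 0.447). Between P5 and Adult the mean dropped from 13.4 ± 1.499 to 3.07 ± 0.487 FPKM (SD, n = 2), 4.37-fold, with a log2 change of -1.83 (limma adjusted p = 0.000207). In relation to its substrate, Eef2k was at 1.63 and 1.72 FPKM per 100 FPKM of Eef2 at E18, 2.42 and 2.57 at P5 and, in Adult, 0.948 and 1.20. This ratio was therefore highest at P5 and lowest in Adult, with no overlap between ages.

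Counted together, 4 of 7 genes were called between E18 and P5 (Eef1a2 higher; Eef1a1, Eef1g and Eef2 lower), where 10.5% of all tested genes were called, 5.52% higher and 4.95% lower. All 7 were called in Adult against P5, with 1 higher and 6 lower, beside a background of 59.8% (26.2% higher, 33.7% lower). The count was the same in Adult against E18, beside 59.7% (25.3% higher, 34.4% lower). These comparisons share libraries and are not independent of each other. The median log2 changes of the 7 were -0.31 for P5 against E18, -0.93 for the step to Adult and -1.69 over the whole span, beside medians over all tested genes of -0.03, -0.07 and -0.11. Between E18 and P5 fewer genes were called whichever library was left out, both among these 7 and over all tested genes. Fewer samples remain in such fits. The log2 changes there stayed between -0.54 and -0.40 for Eef1a1 and between 0.90 and 1.24 for Eef1a2. They stayed between -0.57 and -0.49 for Eef1g and between -0.86 and -0.71 for Eef2. In both Adult comparisons, all 7 genes kept their direction whichever library was left out.

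**Figure D3:**
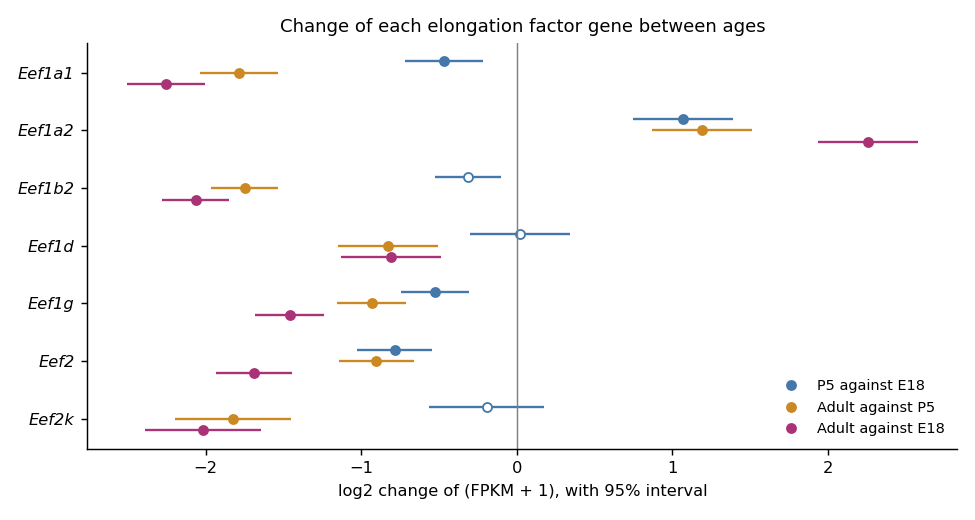
Log2 change of (FPKM + 1) for each gene (horizontal axis) in the 3 comparisons, with 95% intervals from limma over 6 libraries. Filled points have an adjusted p under 0.05 and open points do not; Eef1a2 lies to the right of 0 in all 3, and Eef1b2, Eef1d and Eef2k are open for P5 against E18.

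At E18 the order of levels from high to low was Eef1a1, Eef2, Eef1g, Eef1b2, Eef1a2, Eef1d and Eef2k, with no overlap between neighbours. The order was the same at P5, but Eef1g (204 and 193 FPKM) and Eef1b2 (201 and 192) overlapped and did not differ beyond their spread. In Adult, Eef1a2 had moved up from the fifth place to the third, above Eef1g and Eef1b2.

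At the level of isoforms, 32 of the 38 had a mean of at least 1 FPKM and were tested. Between E18 and P5, 2 were called, Eef1a2-201 (limma adjusted p = 0.0370) and Eef2-201 (0.0344), beside 1.63% of all 34941 tested isoforms (0.804% higher, 0.824% lower). In Adult 18 were called against P5, beside a background of 43.3% (19.2% higher, 24.1% lower). Against E18 it was 25, beside 44.7% (17.9% higher, 26.8% lower). How reads are divided between isoforms that share most of their exons is an estimate of the authors' software.

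Eef1a1 and Eef2 were carried almost wholly by their principal coding transcript. Eef1a1-201 (1386 coding bases) held 97.4% and 97.8% of Eef1a1 FPKM at E18 and 93.8% and 95.1% in Adult. Retained-intron and processed transcripts of Eef1a1 made up 1.53% and 1.26% at E18 and 4.28% and 3.22% in Adult. Within this minor class, the processed transcript Eef1a1-204 was at 4.56 and 5.09 FPKM at E18, 3.997 and 4.23 at P5, then 10.7 and 6.28 in Adult, against the direction of the gene (Adult against P5, log2 change 0.85, limma adjusted p = 0.0366). Against E18 its log2 change of 0.66 was not called (limma adjusted p = 0.0744). The retained-intron forms Eef1a1-202, Eef1a1-203 and Eef1a1-206, each between 7.79 and 11.6 FPKM at E18 and between 2.96 and 6.15 in Adult, were called lower against E18 (limma adjusted p 0.00512 to 0.0191) and not against P5 (0.0940, 0.146 and 0.523). Isoforms of the 7 genes called higher in Adult against P5 numbered 3 as deposited, and 2 with TPM or without any library other than Adult replicate 2. Eef1a1-208, annotated as protein-coding with 558 coding bases in 3 exons, was at 31.2 and 27.7 FPKM at E18, 19.4 and 17.96 at P5 and, in Adult, 10.9 and 10.5. Whether a protein is made from it was not tested. Eef2-201 held between 97.2% and 98.0% of Eef2 in the 6 libraries, and its retained-intron form Eef2-202 fell from 12.8 and 15.1 FPKM at E18 to 4.96 and 3.44 in Adult (log2 change -1.53, limma adjusted p = 0.00343).

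Eef1d differed among its forms. The isoforms with the longest coding sequence (1980 bases) encode the long form of eEF1Bδ, which has been described as a nuclear protein acting on heat-shock genes, and the short forms encode the exchange subunit. The long coding isoforms summed to 20.3 and 21.7 FPKM at E18, 18.2 and 20.3 at P5, then 15.3 and 13.6 in Adult. The 6 coding isoforms of under 1000 coding bases summed to 8.17 and 7.51 FPKM at E18, 10.9 and 11.8 at P5 and, in Adult, 3.46 and 1.04. The long forms therefore made up 61.9% and 65.0% of Eef1d at E18, 56.6% and 57.8% at P5, then 74.2% and 82.3% in Adult. Of the single isoforms, the long Eef1d-204 was not called in Adult against E18 (log2 change -0.42, limma adjusted p = 0.0707). The short form with the highest mean, Eef1d-205 (771 coding bases), was at 4.14 and 1.53 FPKM at E18, 4.83 and 4.05 at P5, then 2.41 and 0 in Adult, and was not called in Adult against E18 (-0.97, limma adjusted p = 0.249). Eef1d-213 (631 coding bases) was at 0.569 and 1.11 FPKM at E18 and 1.05 and 1.04 in Adult, and its mean was too low for the test. It was the only one of the 6 above 0 in Adult replicate 2. The coding lengths of Eef1d-213 and Eef1d-215 (581 bases) do not divide into whole codons, so their annotated coding sequences are incomplete. Whether their FPKM belong to a full short form was not tested. The short Eef1d-201 (735 coding bases) was at 2.33 and 3.52 FPKM at E18, 4.63 and 4.27 at P5 and was listed at 0 in both Adult libraries. These short forms were named after their values were seen. The fitted log2 change of Eef1d-201 was -1.96 in Adult against E18 (limma adjusted p = 0.00144), a size that depends on the pseudocount. Whether the long and short forms changed by different amounts was not tested beyond these values.

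The makeup of Eef1b2 overlapped between ages while its level fell. Isoforms annotated as targets of nonsense-mediated decay held 34.3% and 38.0% of Eef1b2 FPKM at E18, 37.9% and 35.8% at P5 and, in Adult, 34.0% and 35.4%, so the ages overlapped. The coding forms held 56.3% and 52.8%, 56.1% and 55.9%, and 51.8% and 58.0%. Eef1b2-209 (552 coding bases) went from 85.6 and 75.1 FPKM at E18 to 17.6 and 19.6 in Adult. The decay-annotated Eef1b2-205 went from 79.1 and 85.9 to 16.1 and 18.04, and the coding Eef1b2-204 from 53.4 and 52.8 to 11.6 and 14.5. Each of these 3 was called in Adult against E18 (limma adjusted p at most 0.000361). The processed transcript Eef1b2-202 was at 18.8 and 17.2 FPKM at E18 and 6.68 and 3.84 in Adult.

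Eef1g-201 carried 91.6% and 92.5% of Eef1g at E18 and 89.2% and 94.4% in Adult. Its retained-intron form Eef1g-206 was at 10.2 and 7.89 FPKM at E18, 3.56 and 4.16 at P5 and listed at 0 in both Adult libraries, while Eef1g-205, of the same class, was at 11.5 and 11.7, 4.96 and 9.30, and 4.64 and 2.21. An isoform that the table marks as an unannotated variant of Eef1g-201 was listed at 0 in all 4 younger libraries and at 5.57 and 2.82 FPKM in Adult; this variant and Eef1g-206 were singled out after their values were seen. The kinase gene Eef2k had 2 annotated forms with the same coding length of 2172 bases. Eef2k-204 held 49.5% and 51.2% of its FPKM at E18, 60.8% and 48.3% at P5, then 64.1% and 50.1% in Adult, with no separation of ages.

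**Figure D4:**
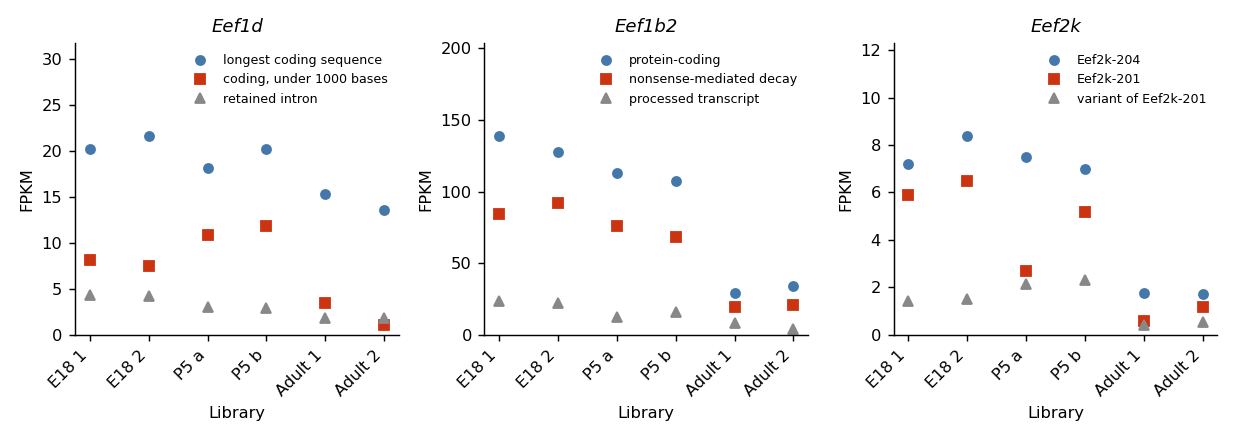
FPKM in each library (horizontal axis) of Eef1d forms by coding length, Eef1b2 forms by annotated class, and the 3 Eef2k isoforms. Each symbol is 1 library. Eef1d forms with the longest coding sequence go from 20.3 and 21.7 FPKM at E18 to 15.3 and 13.6 in Adult. The shorter coding forms go from 8.17 and 7.51 to 3.46 and 1.04, and the Eef1b2 classes fall together.

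Some of these genes have many processed pseudogenes, whose reads can be misassigned. Of the 31-base stretches in Eef1a1-201, 67.9% also occurred in 22 annotated pseudogenes, and 68.0% of those in Eef1g-201 in 10. The share was 23.8% for Eef1b2, 15.98% for Eef1d and 23.2% for Eef2, and there was no such pseudogene for Eef1a2 or Eef2k. Counting other genes of any type, the share was 74.8% for Eef1a1-201 and 2.49% for Eef2k-204. The 6 Eef1a1 pseudogenes in the table summed to 41.6 and 41.8 FPKM at E18, 34.3 and 34.6 at P5 and, in Adult, 14.9 and 21.96, which is between 1.33% and 3.52% of Eef1a1. The 2 Eef1g pseudogenes summed to 34.1 and 35.5 FPKM at E18, 26.1 and 25.04 at P5, then 5.84 and 4.92 in Adult. That is 12.3% and 12.1% of Eef1g at E18 and 5.54% and 4.86% in Adult, the highest such shares of the 7 genes at those ages. How many reads were assigned to the wrong copy was not tested.

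The direction of each gene was checked under other scalings of the libraries, because the FPKM total over all isoforms was 485423 to 550826 in the younger libraries and 800484 and 854713 in Adult. The total over protein-coding genes ran the other way, at 354533 to 380504 and at 294852 and 278011. Scaling to the whole total (TPM) moved the median log2 change of all genes in Adult against E18 from -0.11 to -0.68, and scaling to the protein-coding total moved it to 0.21. Relative to that median, Eef1a1 was at -2.14 as deposited, -2.20 with TPM and -2.09 with the protein-coding total. Eef1a2 was at 2.37, 2.33 and 2.42 in the same order, and Eef2 at -1.57, -1.63 and -1.52. All 7 genes kept their direction and their call in both Adult comparisons under these scalings and under quantile normalization. Unscaled by the median, the Eef1a2 change in Adult against P5 was 0.44 with TPM (limma adjusted p = 0.0184) and 1.52 with the protein-coding total (0.000285). For P5 against E18, Eef1a1 lost its call with TPM (limma adjusted p = 0.0647), with the protein-coding total (0.0510) and with quantile normalization (0.324), and the calls of Eef1a2, Eef1g and Eef2 were kept.

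**Figure D5:**
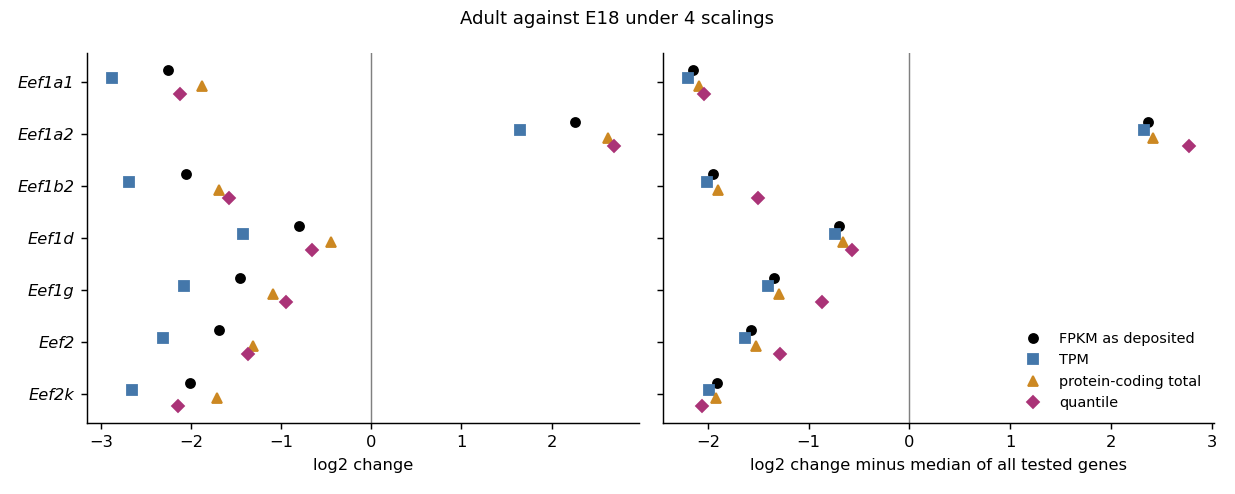
Adult against E18 for each gene under 4 scalings (symbols): log2 change on the left, and on the right the same after subtracting the median over all 14390 tested genes. Eef1a2 is right of 0 and the other 6 are left of 0 under each scaling, and relative values of Eef1a1 lie between -2.20 and -2.04.

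The cell makeup of the libraries also changed with age. Of 15 listed ganglion cell markers 14 were in the table, with a summed level of 3351 to 3930 FPKM in the younger libraries and 529 and 342 in Adult, and all 14 reached 1 FPKM in every library. All 12 rod markers summed to between 5.88 and 12.2 FPKM in the younger libraries and to 6150 and 756 in the Adult libraries. Amacrine markers (10 of 10) summed to 349 to 433 and then 1450 and 1912 FPKM, and Müller glia and astrocyte markers (8 of 10, without Gfap and Rgr) to 206 to 243 and then 1511 and 1812. Of 10 microglia and macrophage markers only C1qa was listed, at no more than 1.25 FPKM. Cone markers (7 of 8) summed to at most 5.42 FPKM in the younger libraries and to 84.3 and 79.2 in Adult, and endothelium and pericyte markers (4 of 10) to at most 9.62 and then 32.2 and 44.2. The sum of all 10 bipolar markers, which share Isl1 with the ganglion cell list, was 258 and 254 FPKM at E18, 133 and 148 at P5, then 171 and 158 in Adult. Their median nevertheless rose, from between 0.119 and 0.472 FPKM in the younger libraries to 17.8 and 15.5 in Adult. Of the 10, between 2 and 4 reached 1 FPKM in the younger libraries, and 10 and 9 in Adult. The sums for ganglion cells, rods, cones, amacrine cells, glia and vessels differed between Adult and the younger ages, as the elongation factors did, and their part in the changes of Eef1a1, Eef1a2 and the others was not tested. Between the Adult libraries, the rod sum differed 8.13-fold, and the 7 genes differed between 1.01-fold (Eef1a1 and Eef2) and 1.25-fold (Eef1d, higher in replicate 1, and Eef2k, higher in replicate 2), with Eef1a2 at 1.07-fold. Progenitor and cell cycle markers were at 204 FPKM in E18 replicate 1 and 64.9 in E18 replicate 2, where the 7 genes differed between 1.02-fold (Eef1b2 and Eef1d) and 1.13-fold (Eef2k).

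Other genes of the elongation pathway were counted by list. Of 55 genes in 8 lists, 53 were in the table and 51 were tested. Between E18 and P5, 4 were higher and 1 was lower. In Adult against P5, 4 were higher and 23 lower, and in Adult against E18, 6 were higher and 24 lower, with a median log2 change of -0.35 beside -0.11 for all tested genes. The backgrounds of called genes are those given for the 7 genes, with 25.3% of all tested genes called higher and 34.4% lower in Adult against E18. This split depended on scaling: it was 1 higher and 38 lower with TPM, 15 higher and 11 lower with the protein-coding total, and 8 higher and 19 lower with quantile normalization. The background moved as well. Over all 14390 tested genes it was 2047 higher and 8138 lower with TPM, and 5396 and 3323 with the protein-coding total. With quantile normalization it was 3830 and 4787. The counts by list given below for Adult against E18 have these same backgrounds. Relative to the median of all genes, the median of these genes was -0.24 as deposited, -0.29 with TPM, -0.19 with the protein-coding total and -0.06 with quantile normalization. By comparison, all 77 cytosolic ribosomal protein genes tested were lower in Adult against E18 under the deposited FPKM, TPM and the protein-coding total, and 76 with quantile normalization. Their median log2 change of -1.73 as deposited was close to that of Eef2.

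Among the partners of eEF1 and the tRNA synthetases, 5 of 6 were lower in Adult against E18 as deposited, 6 with TPM, 4 with quantile normalization and 2 with the protein-coding total. Lars, the leucyl-tRNA synthetase, was at 20.7 and 22.2 FPKM at E18, 22.3 and 15.6 at P5 and, in Adult, 9.89 and 10.3 (log2 change -1.02, limma adjusted p = 0.00296). Hars, the histidyl-tRNA synthetase, was at 39.1 and 42.5, 49.99 and 46.2, and 28.03 and 27.1 (-0.55, 0.00428), a call lost with the protein-coding total (-0.19, limma adjusted p = 0.130). Vars, the valyl-tRNA synthetase that binds the eEF1B complex, was the 1 gene of the 8 lists called lower at P5 against E18 (-0.65, limma adjusted p = 0.0220) and was named after its values were seen.

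The next lists hold enzymes that modify eEF1A and eEF2. Of their lysine methyltransferases, 0 of 3 tested were called by limma in Adult against E18, and 0 of 3 had an unadjusted p under 0.05. With TPM 2 of these were called lower, and with quantile normalization 1. Mettl10 was at 25.6 and 25.7 FPKM at E18 and 19.7 and 22.7 in Adult (-0.27, limma adjusted p = 0.1004, but 0.09 with the protein-coding total), and Mettl13 at 4.12 and 4.08 and 2.60 and 3.07 (-0.41, 0.0806). Diphthamide is a modified histidine of eEF2, and 3 of 7 genes of its synthesis were lower in Adult against E18, although the median of the list was 0.16. Dph3 was at 27.6 and 30.4 FPKM at E18 and 17.8 and 20.0 in Adult (-0.59, limma adjusted p = 0.00487), and Dph2 at 7.36 and 7.03 and 5.58 and 4.56 (-0.44, 0.0398). With the protein-coding total, 3 genes of this list were instead called higher and 0 lower.

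For eIF5A, an elongation factor that relieves stalled ribosomes, Eif5a was at 180 and 200.2 FPKM at E18, 192 and 184 at P5, then 101 and 101 in Adult (log2 change of Adult against E18 -0.91, limma adjusted p = 0.000412). Its deoxyhypusine synthase Dhps was at 39.3 and 44.5, 67.5 and 48.6, and 28.02 and 27.8 (-0.57, 0.0258). That call was lost with the protein-coding total (-0.21, limma adjusted p = 0.284) and with quantile normalization (-0.33, 0.0982). The paralogue Eif5a2, named after its values were seen, was at 10.9 and 12.2 FPKM at E18, 16.7 and 20.1 at P5, then 15.9 and 15.5 in Adult. It was called higher in Adult against E18 as deposited (0.42, limma adjusted p = 0.0355) but was at -0.17 with TPM.

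In termination, recycling and rescue, 1 of 8 genes was higher and 4 were lower in Adult against E18 as deposited. The split was 0 higher and 6 lower with TPM, 3 and 2 with the protein-coding total, and 2 and 3 with quantile normalization. Hbs1l, which rescues stalled ribosomes with Pelo, was at 41.2 and 44.0 FPKM at E18, 39.4 and 42.4 at P5 and, in Adult, 19.5 and 19.2 (-1.10, limma adjusted p = 0.000244). Etf1, the release factor eRF1, was at 33.7 and 38.7, 44.5 and 43.4, and 18.8 and 17.9 (-0.94, 0.000614). For selenocysteine, Secisbp2 was at 7.67 and 7.91 FPKM at E18 and 12.3 and 10.1 in Adult (0.46, limma adjusted p = 0.0310), but at -0.10 with TPM. Secisbp2l was not called, at 26.6 and 27.8 and 25.5 and 22.9 FPKM (-0.16, 0.280; 0.20 with the protein-coding total). Of mitochondrial elongation factors, Tufm was at 31.8 and 32.4 at E18 and 17.1 and 15.5 in Adult (-0.94, limma adjusted p = 0.00257) and Gfm1 at 12.1 and 11.6 and 17.9 and 14.7 (0.42, 0.0350), the latter at -0.16 with TPM.

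Of 16 tested regulators of eEF2K, 3 were higher and 0 lower at P5 against E18, and 1 was higher and 10 lower in Adult against P5. Of all tested genes, 5.52% were called higher and 4.95% lower in the first comparison, and 26.2% and 33.7% in the second. In Adult against E18, 2 were higher and 9 lower. These counts changed with scaling. Relative to the median of all genes, that of this list in Adult against P5 was -0.74 as deposited and -0.81 with TPM. It was -0.70 with the protein-coding total and -0.52 with quantile normalization. Calm2, which encodes calmodulin, was at 1041 and 1257 FPKM at E18, 1715 and 1586 at P5, then 499.6 and 509 in Adult, so that it peaked at P5. Its log2 changes were 0.53 (limma adjusted p = 0.0480) and -1.71 (0.000134). Ppp2cb, a catalytic subunit of the phosphatase PP2A, was at 113 and 129, 122 and 117, and 46.9 and 43.1 FPKM (Adult against E18 -1.41, limma adjusted p = 0.000124).

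By Euclidean distance between centred log2(FPKM + 1) profiles over the 6 libraries, the nearest of 7428 genes with a mean of at least 10 FPKM to Eef1a1 were Rpl15, Cacnb3, an annotated processed pseudogene under a clone name, Tpt1 and Rpl22. Their distances ran from 0.10 to 0.17. Rpl15, a ribosomal protein gene, was at 194 and 207 FPKM at E18, 145 and 141 at P5 and, in Adult, 38.4 and 39.9. Tpt1 was at 420 and 453, 304 and 303, and 95.3 and 83.5. Of the elongation factors, Eef1b2 came at place 19 in this order, Eef2k at 75, Eef2 at 559, Eef1g at 630, Eef1d at 1680 and Eef1a2 at 7142. For Eef1a2, the nearest included Dnajc27, Fam174a, Nsf and Esrrg, at distances of 0.23 to 0.29. Nsf, which disassembles SNARE complexes, was at 32.4 and 36.1 FPKM at E18, 89.4 and 72.5 at P5, then 152 and 161 in Adult. Dnajc27 was at 10.7 and 11.3, 24.3 and 18.5, and 49.98 and 50.1. In Nsf and Dnajc27, as in Eef1a2, P5 library a was above library b. Choosing genes by distance over these same libraries favours such a match.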

How the data were processed

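Reads were aligned by HISAT2 to mm10 (GRCm38) and quantified by Cufflinks and Cuffdiff, per the submitters' processing notes; versions and any scaling between libraries are not given in the sources used here. The authors deposited isoform FPKM, with 0.0001 in place of 0 (read here as 0) and a highest value of at least 1.00 FPKM for every isoform listed. Library depth is unknown, so precision rests on the spread between 2 libraries per age. A further 9 columns of per-sample values were not used here.

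Isoform FPKM were summed per symbol. The model was limma 3.58.1 (R 4.3.3, eBayes with trend) on log2(FPKM + 1) of 6 libraries, with age as the factor and no replicate block, for 14390 genes and 34941 isoforms with a mean of at least 1 FPKM. The pseudocount of 1 understates the fold change of low values. Residual degrees of freedom were 3 and prior degrees of freedom 3.26 (genes) and 2.88 (isoforms). Tests were two-sided with Benjamini-Hochberg adjustment over the whole table of each comparison, and a call is an adjusted p under 0.05. The fit was also run on simulated data with independent noise and few changed genes, unlike the Adult comparisons. No conclusion is drawn from that run. Ratios within a library were compared by exact permutation.

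Named genes are the 7 elongation factors, the 2 genes of each of 8 pathway lists with the smallest p in Adult against E18, the 5 nearest profiles to Eef1a1 and to Eef1a2 (without Gm and Rik symbols and small RNAs; a single one is not reported here), and isoforms with a mean of at least 5 FPKM. The genes and lists were chosen with earlier results of these data known. Gene types, positions and transcripts come from GENCODE M21. The alternatives were other pseudocounts, filters, scalings, annotated isoforms only, no trend, only the libraries compared, a replicate block and leaving out each library.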

Additional observations from a re-analysis of the deposited data

How the results depend on the processing

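Both Adult counts of called genes stayed at 7 of 7 under each alternative run. Between E18 and P5 the count of 4 dropped to 2 when only the 4 libraries of the comparison were fitted. In that fit, calls over all 14390 genes dropped from 1507 to 696. Calls also dropped, for the 7 genes and over all genes, when single libraries were left out, where fewer samples remain. Over all 34941 tested isoforms, fewer were likewise called whichever library was left out, between E18 and P5 and in Adult against E18. With TPM, calls over all tested isoforms in Adult against E18 rose from 15611 to 19250. The isoform counts below, which are for the 7 genes, have these backgrounds. Called isoforms between E18 and P5 went from 2 to between 0 and 0 on leaving out a library. Called isoforms in Adult against E18, 25 as reported, ranged from 16 (without E18 replicate 1) to 26 when single libraries were left out, and reached 29 with TPM. The Eef1d change between E18 and P5 was -0.0387 without P5 library b (limma adjusted p = 0.900), the opposite sign of its main value, and neither was called; the cause was not tested. A replicate block could be fitted only for E18 and Adult, since the P5 columns carry no replicate numbers; it gave 7 called genes (1 higher, 6 lower). Same-numbered E18 and Adult libraries deviated from their age means with a correlation of 0.02 across 14390 genes. With 2 libraries per age, this value cannot show whether the same number marks a shared preparation. The main fit did not treat the numbers as pairs. The block changed no call of the 7 genes. Without counts, the depth behind low values such as Eef2k in Adult is unknown.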
